A study of Mus musculus with 6 samples.

Results

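The genes described here are 8 transcripts that read lower in FOG1 ki/ki megakaryocytes than in control megakaryocytes on the same array type: Sh3bgrl2, Mmd, Serpini1, Pxdc1, Ndnf, Ddit4l, A930003A15Rik and Nrgn. They were chosen by name, with this comparison of the 2 groups in view, so their differences between the groups are a description and carry no test. Every probe set that the platform annotation assigns to one of them alone was taken, which gave 16 of the 45101 probe sets. Of these 16, 14 lay in the brighter 50% of probe sets on average and 2 did not. A probe set that passed this filter through its control arrays had to be high there. The data were MAS5 signals from 6 arrays of mouse megakaryocytes, differentiated from fetal liver cells in culture with thrombopoietin and isolated on an albumin gradient.

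All cultures came from mice of a mixed C57BL/6xSv129 background. The control group held 3 arrays, 2 from FOG1+/- cultures (replicates 1 and 2) and 1 from a FOG1+/+ culture (replicate 3). The other 3 arrays came from cultures labelled FOG1-/- ki/ki, written FOG1 ki/ki here. The labels do not say what change the knocked-in allele carries, and they give no age, sex or litter. They call the samples biological replicates. By their label the FOG1+/- controls carry 1 wild-type copy of FOG1, and the labels do not describe the other copy. Only 1 array of the series thus stands for cells with both wild-type copies.

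FOG1, the protein of Zfpm1, does not bind DNA by itself in the way GATA factors do. It attaches to GATA factors and brings a chromatin remodelling complex, NuRD, to the genes they occupy, and megakaryocytes need it to form. Megakaryocytes are the large polyploid cells of blood-forming tissue that release platelets, and they fill with granule proteins, surface receptors and signalling proteins as they mature. The 8 genes belong to no single pathway. Serpini1 encodes neuroserpin, a secreted inhibitor of tissue plasminogen activator, and Ndnf a secreted glycoprotein with fibronectin type III domains. Mmd encodes a membrane protein of the PAQR family. Ddit4l encodes an inhibitor of mTORC1, Nrgn the calmodulin-binding protein neurogranin, and Pxdc1 a protein with a PX domain, a fold that in other proteins binds phosphoinositides. Sh3bgrl2 encodes a small protein of the thioredoxin fold, and A930003A15Rik is annotated as a long non-coding RNA in RefSeq.

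Because FOG1 acts through GATA factors, the 250 bases before each gene's start were read from the RefSeq promoter table (GRCm38.p6), which held 7 of the 8 genes, all but Ndnf. The 3 printed below were chosen to differ in base composition and include the lowest and highest CpG counts of the 7. The Mmd window, not printed, held the most G and C, 74.4%. Printed are Sh3bgrl2 (chr9:83548088-83548337, plus strand), Pxdc1 (chr13:34652682-34652931, minus strand) and A930003A15Rik (chr16:19884275-19884524, minus strand). Each runs 5′ to 3′ on the gene's own strand and ends at the base before the start. Capitals mark matches, on either strand, to an ETS word (GGAAG after an A or a C) or a RUNX word (TGNGGT, with T or C at the N).
Sh3bgrl2: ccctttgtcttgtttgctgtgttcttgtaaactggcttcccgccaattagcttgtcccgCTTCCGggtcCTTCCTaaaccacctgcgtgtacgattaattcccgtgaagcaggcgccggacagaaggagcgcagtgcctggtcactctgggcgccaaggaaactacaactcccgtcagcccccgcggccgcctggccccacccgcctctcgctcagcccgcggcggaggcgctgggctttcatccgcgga
Pxdc1: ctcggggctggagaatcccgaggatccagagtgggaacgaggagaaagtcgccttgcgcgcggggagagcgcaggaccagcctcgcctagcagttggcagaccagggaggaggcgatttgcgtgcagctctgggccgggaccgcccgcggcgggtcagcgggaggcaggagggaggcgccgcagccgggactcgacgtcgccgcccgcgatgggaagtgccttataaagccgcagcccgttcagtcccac
A930003A15Rik: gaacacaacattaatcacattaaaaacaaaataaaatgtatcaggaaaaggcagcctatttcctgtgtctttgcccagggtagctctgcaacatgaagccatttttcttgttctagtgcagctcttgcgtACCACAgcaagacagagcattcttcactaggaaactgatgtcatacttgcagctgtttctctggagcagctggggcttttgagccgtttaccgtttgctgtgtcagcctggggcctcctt

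GATA words, searched on both strands as GATAA or GATAG after an A or a T, occurred in 0 of the 7 windows. Among all 32851 RefSeq windows of the same length 26.5% held at least 1 of them, and among the 11750 windows of the other genes tested 17.4% did. No match says only that these letters are not in this window. An ETS word was found in 3 of the 7 windows, those of Sh3bgrl2, Serpini1 and Ddit4l, or 42.9%, against 39.2% of all windows and 46.6% of those of the other genes tested. In the Sh3bgrl2 window 2 ETS words stood close together, at bases -191 to -186 and -181 to -176 counted back from the start. A RUNX word was found in 1 of the 7, at bases -120 to -115 of A930003A15Rik, against 18.6% of all windows and 17.9% of those of the other genes tested. The windows differed in composition. Pxdc1 held 28 CpG dinucleotides in 69.6% G and C, Sh3bgrl2 22 in 62.8%, and A930003A15Rik 3 in 45.2%, while the median over all windows was 6 in 52.4%.

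The 2% trimmed mean of every array was 150, the target to which the authors scaled the signals. Array medians were 10.3, 12.2 and 7.75 in control replicates 1 to 3 and 12.3, 11.1 and 5.93 in FOG1 ki/ki replicates 1 to 3. Summed signals of 18 megakaryocyte markers, among them Pf4 and Itga2b, were 35760 to 44167 in controls and 31711 to 40365 in FOG1 ki/ki. Such signal is what the label megakaryocyte implies. Of the 18, 17 lay below control (median log2 difference -0.21), where 44.9% of all genes did. Tubb1, Selp, F2rl2, Gp9 and the collagen receptor gene Gp6 were lower with no overlap, where 4.93% of all genes were. Tubb1 read 2000 to 2910 in controls and 902 to 1334 in FOG1 ki/ki. In the limma test 0 of the 18 passed, where 0.151% of all genes did. With the replicate number as a block 1, Gp6, fell, where 0.835% of all genes passed. Zfpm1 read 430, 862 and 1137 in the controls and 480, 868 and 1274 in FOG1 ki/ki (replicates 1 to 3), which differ by 0.11 in log2 (limma SE 0.44, adjusted p = 0.999). The knocked-in allele may be transcribed, so this does not check the genotype. Gata1, the GATA factor that megakaryocytes depend on, differed by -0.13 in log2 (limma SE 0.16, adjusted p = 0.999). Within bulk cultures, fewer cells of a type and less RNA per cell cannot be told apart.

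For the brightest probe set of each of the 8 genes, every FOG1 ki/ki array read below every control array. Over all 11261 genes tested, 4.93% had FOG1 ki/ki below control with no overlap. The choice of the genes fixed that outcome here. The median log2 difference of the 8 was -1.93, against 0.03 over all genes tested, on the log2(signal + 16) scale, which understates the change of dim genes. Ordered from the lowest difference upwards among those 11261 genes, Pxdc1 ranked 2 and Nrgn, the smallest difference of the 8, ranked 80. The extent of the loss differed between genes. Ndnf and A930003A15Rik lay under the median signal of each FOG1 ki/ki array, whereas Sh3bgrl2, Mmd and Nrgn kept 25.9%, 30.7% and 32.9% of their mean control signal.

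**Figure D1:**
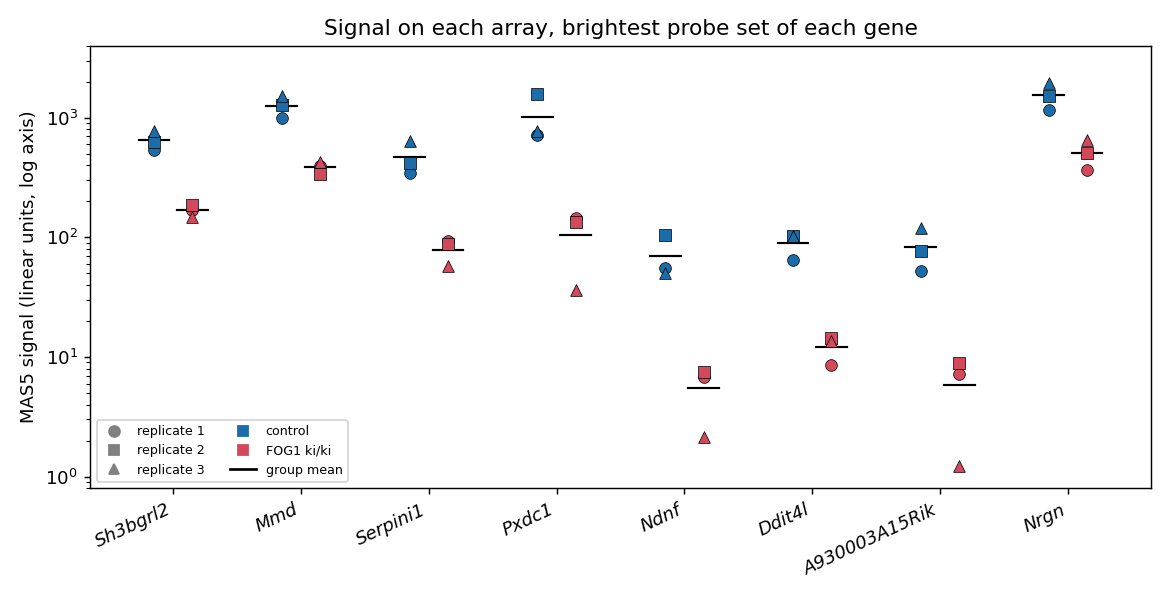
MAS5 signal (log axis) of the brightest probe set of each of the 8 genes on the 3 control arrays (blue) and 3 FOG1 ki/ki arrays (red), with marker shapes for replicate numbers and bars for group means. The groups stand apart for every gene, by the least margin for Nrgn, where the lowest control read 1163 and the highest FOG1 ki/ki array 658, and FOG1 ki/ki replicate 3 reads lowest for A930003A15Rik, at 1.23.

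Neuroserpin, from Serpini1, is made by neurons and released to restrain tissue plasminogen activator. Its brightest probe set read 347, 417 and 644 in control replicates 1 to 3 and 92.6, 87.5 and 57.6 in FOG1 ki/ki replicates 1 to 3. The FOG1+/+ control was the highest array and its same-numbered FOG1 ki/ki array the lowest, and this pair held the widest gap, with log2 differences of -1.74, -2.07 and -3.17 within replicate numbers 1, 2 and 3. The mean signals were 470 ± 155 and 79.2 ± 18.9 (SD, n = 3 each), which on the log2 scale is a difference of -2.32 (SE 0.31). A dimmer probe set designed from the same transcript record read 217, 150.0 and 292 in controls and 80.3, 43.4 and 31.2 in FOG1 ki/ki. It gave -1.82 (SE 0.40) and the same order of the pairs, at -1.27, -1.48 and -2.70. The third Serpini1 probe set read between 0.0375 and 1.1 on all 6 arrays, with overlapping groups, and gave no measure of the gene.

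Ndnf, a secreted factor first described in neurons, was dim throughout. Its brighter probe set read 55.5, 105 and 50.7 in controls and 6.8, 7.5 and 2.14 in FOG1 ki/ki. The control with the highest value was a FOG1+/- array, replicate 2, and each FOG1 ki/ki value lay under the median signal of its own array. Mean signals were 70.4 ± 30.1 and 5.48 ± 2.91 (SD, n = 3 each), with a log2 difference of -1.96 (SE 0.30) and pair differences of -1.65, -2.37 and -1.88. The size of this difference is set by the pseudocount. It was -3.51 with a pseudocount of 1 and -0.93 with one of 64. A second probe set from the same expressed sequence tag read at most 3.4 on any array and did not separate the groups.

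Mmd, whose name comes from a rise during the maturation of monocytes into macrophages, was measured by 3 probe sets. The brightest read 994, 1283 and 1513 in controls and 394, 340.0 and 432 in FOG1 ki/ki. Control values spread more than FOG1 ki/ki values, and the FOG1+/+ array was the highest. Mean signals were 1263 ± 260.0 and 388 ± 46.0 (SD, n = 3 each), which on the log2 scale is a difference of -1.65 (SE 0.20). The other probe sets gave -1.66 (SE 0.18) and -1.41 (SE 0.20), a range of 0.25 over all 3. In each of them the difference was smallest within replicate number 1, at -1.30, -1.20 and -1.09, and lay between -1.52 and -1.95 within numbers 2 and 3.

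Monocyte and macrophage markers, among them Csf1r and Cd68, were present in all cultures. Of 20 tested, 19 lay below control (median log2 difference -0.73), where 44.9% of all genes did. The limma test passed 0 of them, where 0.151% of all genes passed. Their summed signal was 15269 to 26655 in controls and 9217 to 20568 in FOG1 ki/ki. Within replicate number 3 the sums were close, 15269 in the control and 15115 in FOG1 ki/ki, while Mmd read 1513 and 432 on the same arrays. Within replicate number 1, where Mmd differed least, the sums were 20209 and 9217, and within number 2 they were 26655 and 20568. Single markers went both ways within number 3. Lyz1 read 3404 in the control and 3892 in FOG1 ki/ki, and Cd68 read 1014 and 628. The part of monocytes and macrophages in the Mmd difference was not tested.

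Ddit4l, also called REDD2, restrains mTORC1, the kinase complex that couples nutrients to cell growth. Its brightest probe set read 65.3, 103 and 102 in controls and 8.5, 14.3 and 13.7 in FOG1 ki/ki, with control replicate 1 and FOG1 ki/ki replicate 1 the lowest of their groups. The pairs therefore differed by nearly the same amount, -1.73, -1.97 and -1.99, around a mean of -1.90 (SE 0.21). The mean signals were 90.0 ± 21.4 and 12.2 ± 3.18 (SD, n = 3 each). A pair of dimmer probe sets gave -1.23 (SE 0.17) and -1.11 (SE 0.26), and unlike the brightest both had their largest difference within replicate number 1, at -1.58 and -1.49. On the raw scale the control means were 7.41, 4.65 and 4.73 times the FOG1 ki/ki means for the 3 probe sets. With a pseudocount of 64 the 3 differences shrank to -1.01, -0.55 and -0.47.

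Neurogranin, from Nrgn, holds calmodulin in an inactive state until calcium rises, and is best known from the postsynaptic side of neurons. Its single probe set read 1163, 1519 and 1974 in controls and 365, 510.5 and 658 in FOG1 ki/ki. In both groups number 1 was the lowest array and number 3 the highest, and the pair differences were almost equal, -1.63, -1.54 and -1.56 (SD 0.05). Mean signals were 1552 ± 406 and 511 ± 147 (SD, n = 3 each), which on the log2 scale is a difference of -1.58 (SE 0.32). Of the 8 brightest probe sets it had the smallest spread of pair differences, while Pxdc1 had the largest, with an SD of 0.89.

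Pxdc1 had the largest difference of the 8 and the most uneven one. Its single probe set read 717, 1587 and 770.4 in controls and 146, 134 and 36.1 in FOG1 ki/ki. Control replicate 2 stood above the other controls, and FOG1 ki/ki replicate 3 stood below the other arrays of its group. Mean signals were 1025 ± 488 and 105 ± 60.2 (SD, n = 3 each), with a log2 difference of -3.17 (SE 0.64). Within replicate numbers 1, 2 and 3 the differences were -2.18, -3.42 and -3.92, and on the raw scale the control was 4.92, 11.8 and 21.3 times the FOG1 ki/ki signal.

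Sh3bgrl2 is one of a small family of genes named for an SH3-binding, glutamic acid-rich protein. Its brighter probe set read 539, 627 and 779 in controls and 168, 187 and 149 in FOG1 ki/ki. The FOG1 ki/ki arrays were tightly grouped, and the lowest control was 2.88 times the highest of them. Mean signals were 648 ± 121 and 168 ± 19.1 (SD, n = 3 each), with a log2 difference of -1.84 (SE 0.17) and pair differences of -1.59, -1.66 and -2.27. The other probe set read 381, 294 and 677 in controls and 91.0, 113 and 74.1 in FOG1 ki/ki. It gave -2.03 (SE 0.37), so the mean differences of the 2 probe sets lay 0.19 apart. The pair differences of this dimmer probe set were more uneven, at -1.89, -1.26 and -2.94.

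A930003A15Rik, the non-coding RNA, read 52.2, 77.6 and 120 in controls and 7.2, 8.9 and 1.23 in FOG1 ki/ki. The FOG1+/+ array was highest and FOG1 ki/ki replicate 3 lowest. Mean signals were 83.2 ± 34.1 and 5.78 ± 4.03 (SD, n = 3 each), which on the log2 scale is a difference of -2.15 (SE 0.33), or -3.81 with a pseudocount of 1 and -1.05 with one of 64. Pair differences were -1.56, -1.91 and -2.98. Across the 6 arrays its centred log2 profile was nearest, among the other 7 genes, to that of Serpini1, with a root mean square difference of 0.12, the smallest among all pairs of members. Pxdc1 and Nrgn were the least alike, at 1.16.

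**Figure D2:**
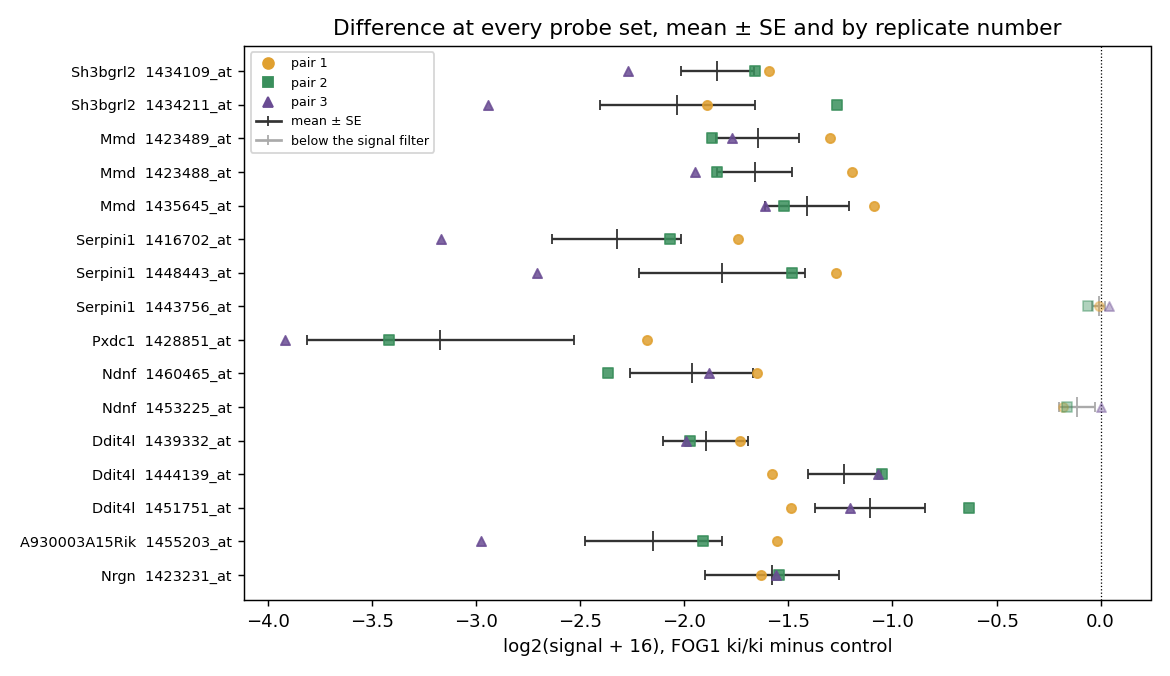
Log2(signal + 16) difference, FOG1 ki/ki minus control, at all 16 probe sets, as the mean with its SE (bars, n = 3 arrays a group) and within each replicate number (coloured markers). The 14 probe sets above the signal filter lie between -3.17 and -1.11, and the pair 1 marker is the one nearest to 0 for the brightest probe set of 7 of the 8 genes; grey bars mark the 2 probe sets near background.

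The pairs differed in size as a set. For the brightest probe sets the median difference of the 8 genes was -1.64 within replicate number 1, -1.94 within number 2 and -2.13 within number 3, against 0.03, 0.04 and -0.02 over all probe sets above the filter. The difference was smallest within number 1 for 7 genes and within number 2 for Nrgn. It was largest within number 3 for 5 genes. Number 3 is the only pair with a FOG1+/+ control, and that array was the highest control for 5 genes, Sh3bgrl2, Mmd, Serpini1, A930003A15Rik and Nrgn. It read 1.34, 1.33, 1.69, 1.84 and 1.47 times the mean of the FOG1+/- arrays for these, and 1.22 times for Ddit4l, but 0.669 times for Pxdc1 and 0.632 times for Ndnf. With 1 FOG1+/+ array there is no test of the genotype, which also cannot be told apart from the replicate number. Both arrays numbered 3 also stood apart in their neutrophil markers, which summed to 2897 in the control and 4161 in FOG1 ki/ki, against 9786 to 17813 on the other arrays. Mpo, a neutrophil granule enzyme gene, read 99.5 and 120.2 there and 1302 to 2271 elsewhere. Arrays numbered 3 also had the lowest median signals, 7.75 in the control and 5.93 in FOG1 ki/ki, against 10.3 to 12.3 elsewhere. Their deposited values carry more decimals than those of the other arrays. The part of these features in the larger differences within number 3 was not tested. Against the FOG1+/- controls alone, the median difference of the 8 genes was -1.85.

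Several of these genes are best known from neurons or from connective tissue, so markers of both were read on the same arrays. Of 14 neuronal markers 3 lay above the signal filter, Tubb3, Nefl and Elavl4, with a median log2 difference of -0.77. The limma test passed 0 of these, where 0.151% of all genes passed. The tubulin gene Tubb3 read 670.4 in control replicate 2 and 32.1 to 186 on the other arrays. Nefl, a neurofilament gene, read 14.2, 20.2 and 68.4 in controls and 4.5, 16.9 and 5.61 in FOG1 ki/ki, and Elavl4, an RNA-binding protein gene, read 24.7, 25.2 and 4.18 in controls and 37.2, 34.9 and 17.8 in FOG1 ki/ki. Both overlapped, with Nefl lower and Elavl4 higher on average in FOG1 ki/ki. Below the filter, Gad1, which encodes an enzyme of GABA synthesis, read 20.3, 20.6 and 33.8 in controls and 1.3, 1.6 and 0.0889 in FOG1 ki/ki, with no overlap and in the members' direction. Snap25, Syt1 and Map2 reached at most 2.1, 2.9 and 3.5 on any array. Summed neuronal signal was 164 to 791 in controls and 92.7 to 248 in FOG1 ki/ki. Fibroblast and stromal markers summed to 477 to 10648 in controls and 302 to 4680 in FOG1 ki/ki. Of 14 tested, 13 lay below control (median -0.75, 0 passed the limma test), where 44.9% of all genes did. Control replicate 2 held the highest stromal sum, and it was also the highest control for Pxdc1, Ndnf and, at 103 against 102 in the FOG1+/+ control, Ddit4l. Within replicate number 3, where stromal sums were 477 and 302, Pxdc1 read 770.4 and 36.1 and Ndnf 50.7 and 2.14. Mast cell and basophil markers summed to 280 to 3111 in controls and 4888 to 6342 in FOG1 ki/ki, with no overlap, and all 9 tested lay above control (median 1.08). Fcer1a, an IgE receptor chain, gave most of the sum on every array but the FOG1+/+ control, and without it, a choice made after seeing the data, they were 187 to 1196 in controls and 976 to 3025 in FOG1 ki/ki, which overlap. Of the 9, 0 passed the limma test, where 0.151% of all genes did. With the block 1, the IgE receptor gene Ms4a2, rose, where 0.835% of all genes passed. Erythroid markers summed to 3975 to 4858 in controls and 3196 to 3802 in FOG1 ki/ki, also with no overlap, and Tfrc and Hbb-b2 gave most of the sums. With either one of them left out, again chosen after seeing the data, the sums overlapped. Of the 4 bright enough to be tested 0 passed the limma test in either fit. Klf1, the erythroid transcription factor gene among them, went the other way, at 43.7, 20.1 and 3.04 in controls and 101, 162 and 78.7 in FOG1 ki/ki, with no overlap. The part of these other cell types in the members' differences was not tested beyond these values.

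The families and pathways of the members were read next, with the members left out. Of 94 tested genes from 7 lists, 0 passed limma's test over all 11261 genes (threshold 0.05 after Benjamini-Hochberg adjustment), where 0.151% of all genes passed. At an unadjusted p under 0.05 there were 7 of the 94, or 7.45%, against 6.69% of all genes. The median log2 difference of the 94 was -0.06, against 0.03 for all genes, and 55 of them, or 58.5%, lay below control, against 44.9% of all genes. With the replicate number as a block, 2 of the 94 rose, both serpins, where 0.835% of all genes passed.

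The relatives of Sh3bgrl2 were measured at high signal. Sh3bgrl read 1613, 1367 and 1265 in controls and 1343, 1358 and 1266 in FOG1 ki/ki, with overlapping groups, and differed by -0.09 in log2 (limma SE 0.14, adjusted p = 0.999). Sh3bgrl3 differed by -0.06 (SE 0.14, limma adjusted p = 0.999). Sh3bgrl2, which was chosen for being low, had -1.84.

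Of 7 tested relatives of Mmd in the PAQR family, 0 passed and 3 lay below control (median 0.02, range -0.35 to 0.32). The adiponectin receptor genes went apart, Adipor1 at -0.35 (limma adjusted p = 0.689) and Adipor2 at 0.32 (limma adjusted p = 0.912). Paqr7, a membrane progestin receptor, had -0.26 (limma adjusted p = 0.999). Among 11 tested serpins and plasminogen activator genes 0 passed and 7 lay below control (median -0.16). Serpinb6b, of the intracellular clade B serpins, read 300, 209 and 122 in controls and 676.5, 878 and 710.4 in FOG1 ki/ki. Every FOG1 ki/ki array was above every control, by 1.84 in log2 on average (limma SE 0.32, adjusted p = 0.138). In the fit blocked by replicate number Serpinb6b rose (limma adjusted p = 0.0444). Serpinb9, the inhibitor of granzyme B, had 0.93 (limma adjusted p = 0.318) and rose with the block (limma adjusted p = 0.0492), while Serpinb6a had -0.62 (limma adjusted p = 0.404, and 0.0763 with the block). The genes of this list thus lay on either side of 0. Mast cell markers given above were higher on the same arrays, though their sums overlapped without Fcer1a. A link between them and these serpins was not tested.

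Of 34 tested PX domain genes besides Pxdc1, 0 passed and 20 lay below control (median -0.05, range -0.86 to 0.47). The sorting nexin genes Snx25 and Snx24 had 0.47 and -0.77 and the phospholipase gene Pld2 -0.78 (limma adjusted p = 0.721, 0.912 and 0.884). FGF ligands and receptors, a route to which Ndnf has been linked, were mostly dim, with 4 of 13 genes on the array above the filter. Of these 4, 0 passed and 2 lay below control (median 0.04), and Fgf7, Fgf1 and Fgfrl1 had -0.85, 0.33 and -0.09 (limma adjusted p = 0.991, 0.999 and 0.999).

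Of 23 tested genes that regulate or carry out mTORC1 signalling, 0 passed and 12 lay below control (median -0.05). Rragd, a Rag GTPase, had -1.09 (limma adjusted p = 0.712, and 0.0817 with the block). The sestrin gene Sesn3 had 1.55 (limma adjusted p = 0.817, and 0.157 with the block) and Deptor, an mTOR inhibitor, 0.72 (limma adjusted p = 0.939, and 0.267 with the block). For Sesn3, FOG1 ki/ki replicate 3 read 538 against 26.1 to 84.7 on the other arrays, and without it the difference was 0.64. With the mean of a gene's probe sets, dim ones included, Rragd had -0.40, Sesn3 1.26 and Deptor 0.33. Among 13 tested calmodulin partners 0 passed and 9 lay below control (median -0.08). Marcks, which binds calmodulin and the membrane, had -0.90 (limma adjusted p = 0.579, and 0.0936 with the block). Camk2d, a calmodulin-dependent kinase subunit, had -1.05 (limma adjusted p = 0.754, and 0.0826 with the block) and Camk1 -0.59 (limma adjusted p = 0.875, and 0.168 with the block). With the mean of a gene's probe sets Camk2d had -0.35, Marcks -0.81 and Camk1 -0.55. The 3 calmodulin genes themselves had no probe set assigned to them alone and were not analysed here.

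**Figure D3:**
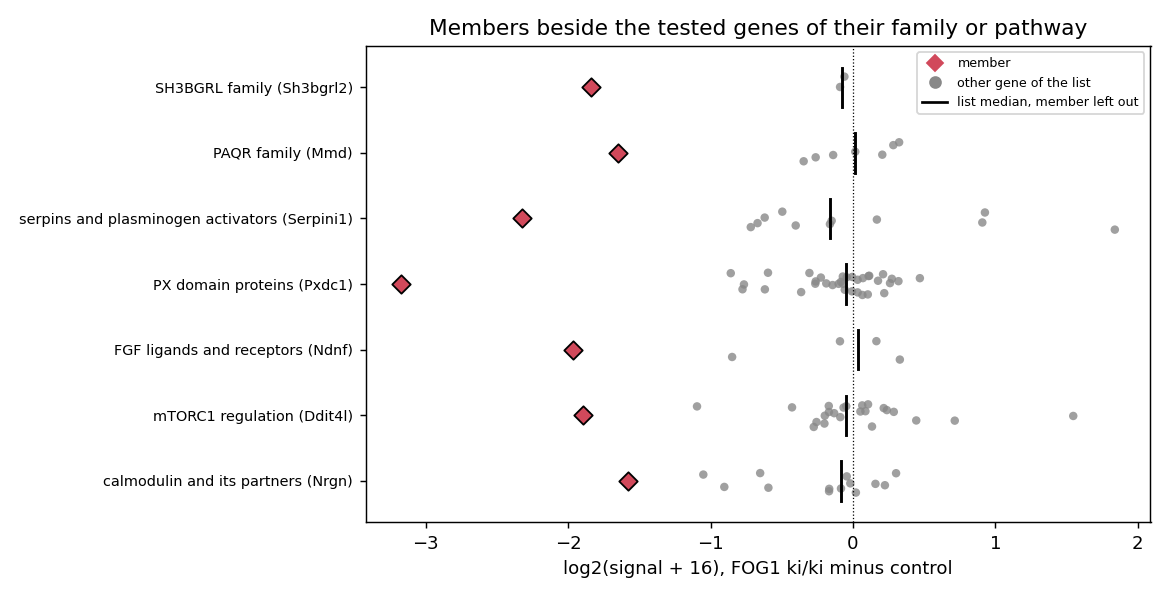
Log2(signal + 16) difference, FOG1 ki/ki minus control, of 7 members (red diamonds) and of the other tested genes of their family or pathway (grey points), with the list median as a black bar. The list medians lie between -0.16 and 0.04, and the members, which were chosen for being low, between -3.17 and -1.58; A930003A15Rik has no list.

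The nearest tested gene on either side of each member on the chromosome was also read, in the RefSeq gene order of GRCm38.p6. This look was added after the members' values were known. Genes not tested were passed over, and the gaps ranged from 0.641 kb (Pdcd10) to 823 kb (Mad2l1). Of these 16 neighbours 0 passed limma's test, where 0.151% of all genes passed, and 4 had an unadjusted p under 0.05, or 25%, against 6.69% of all genes. They are Pdcd10, Slc22a23, Esam and Spa17, and all 4 lay below control. Over all 16 the median log2 difference was -0.27, against 0.03 for all genes, and 9 lay below control, or 56.2%, against 44.9% of all genes.

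The neighbours of Nrgn, Esam at 6.17 kb and Spa17 at 50.5 kb, stood lowest as a pair. Esam, an adhesion molecule of endothelial junctions that platelets also carry, read 394, 292 and 580.3 in controls and 146, 63.0 and 98.7 in FOG1 ki/ki. The groups did not overlap and differed by -1.89 in log2 (limma SE 0.37, adjusted p = 0.196). In the fit blocked by replicate number Esam fell (limma adjusted p = 0.0342). Spa17, a sperm-associated protein gene on the other side of Nrgn, read 107, 87.3 and 299 in controls and 43.0, 49.4 and 61.1 in FOG1 ki/ki, again without overlap (log2 difference -1.25, SE 0.44, limma adjusted p = 0.581, and 0.113 with the block). Nrgn between them, which was chosen for being low, had -1.58.

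Serpini1 starts 0.641 kb from Pdcd10, an apoptosis-linked adaptor gene that is transcribed from the opposite strand. Pdcd10 read 1399, 1275 and 1701 in controls and 1122, 922 and 962 in FOG1 ki/ki, which did not overlap. Its log2 difference of -0.53 (SE 0.16, limma adjusted p = 0.452, and 0.105 with the block) was smaller than the -2.32 of Serpini1. Slc22a23, a transporter gene 283 kb from Pxdc1, had -1.24 (SE 0.42, limma adjusted p = 0.534, and 0.0855 with the block) with overlapping groups. Prpf4b, 222 kb from Pxdc1 on the other side, had 0.24 (limma adjusted p = 0.999). The neighbours of Mmd were both above control, Pctp at 0.37 and Hlf at 0.08 (limma adjusted p = 0.999 for each). Those of Sh3bgrl2 were Lca5 at -0.47 and Ttk at 0.21, those of Ndnf Hpgds at -0.32 and Mad2l1 at 0.21, those of Ddit4l Emcn at -0.51 and H2az1 at 0.09, and those of A930003A15Rik B3gnt5 at -0.24 and Klhl6 at -0.30.

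**Figure D4:**
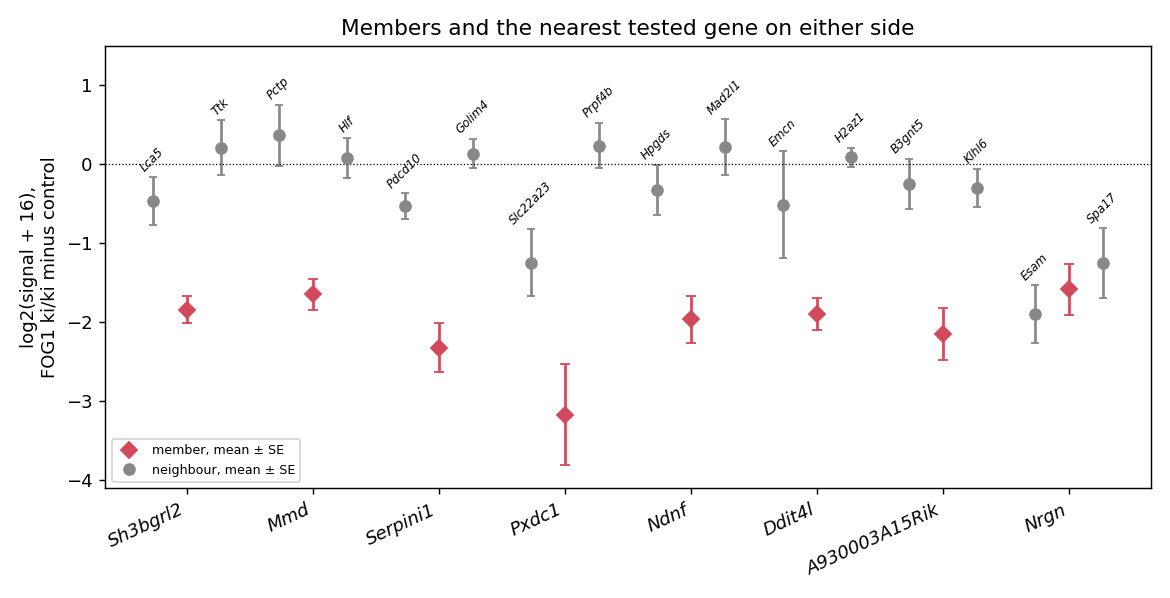
Log2(signal + 16) difference, FOG1 ki/ki minus control, of each member (red diamonds) and of the nearest tested gene at lower (left) and higher (right) coordinates (grey circles), with SE bars. Esam at -1.89 and Spa17 at -1.25 flank Nrgn at -1.58, while the neighbours of Mmd lie above 0.

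The genes outside the 8 whose profile over the 6 arrays came nearest were found by the root mean square difference of log2 values, each centred on the gene's own mean. Such genes are low in FOG1 ki/ki by construction, and their differences are given as a description. Fas, the death receptor gene, was the nearest gene to Sh3bgrl2, Mmd, Ndnf and Ddit4l, at distances of 0.16, 0.13, 0.30 and 0.15. It read 216, 300.0 and 288 in controls and 71.3, 73.5 and 73.1 in FOG1 ki/ki, a log2 difference of -1.67. Pdlim1, a cytoskeletal adaptor gene, came nearest to Serpini1 (0.22), with Cd226, an adhesion receptor gene, the next (0.26). The iron regulator gene Hjv came nearest to Pxdc1 (0.43) and shared its highest control, reading 325, 1170.0 and 511 in controls and 46.9, 89.2 and 34.1 in FOG1 ki/ki. Tent5c was the next (0.46). Mfsd6 (0.23) and Cd226 (0.23) were nearest to A930003A15Rik, and Triqk (0.20) and the nuclear receptor coactivator gene Ncoa1 (0.20) to Nrgn. The next after Fas was Tspan17 for Sh3bgrl2 (0.22), Ncoa1 for Mmd (0.19), and Syt13 for both Ndnf (0.31) and Ddit4l (0.25).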

How the data were processed

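The authors deposited linear array intensities, a MAS5 signal for each probe set on each array (per the submitters' processing notes, which name no version), and all arrays share one trimmed mean. After such scaling a loss of RNA per cell is not visible, MAS5 signals near background are noisy, and precision is limited by the number of arrays. The platform annotation gave 1 gene symbol to 34958 of 45101 probe sets, several to 932 and none to 9211. Of those with 1 symbol, 34754 matched the RefSeq table (GRCm38.p6) and 0 symbols needed updating.

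The 64 control probe sets and the dimmer 50% of the others were removed, the brightest probe set that named a gene alone stood for it, and 11261 genes were tested on log2(signal + 16) by limma 3.58.1 in R 4.3.3 (lmFit, eBayes with a trend, Benjamini-Hochberg over all genes, threshold 0.05). SEs of members come from the pooled variance of the 2 groups, and those of other genes from limma. P-values measure the spread between these cultures only. Named were all members, genes of each list past the test and up to 3 with the smallest unadjusted p, the 2 nearest profiles per member, Zfpm1 and Gata1. The members and lists were chosen with earlier results of these data known. Python 3.11.15, pandas 2.3.3 and matplotlib 3.10.9 did the rest, and the fit was tested on simulated data. The simulated noise was independent between arrays, so it does not cover arrays that deviate together within a replicate number.

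Over 22519 probe sets, the control and FOG1 ki/ki arrays of replicate numbers 1, 2 and 3 deviated together from their group means (r = 0.438, 0.648 and 0.597). They were read as paired. The unblocked fit stayed the main one as planned, and SEs of members ignore the pairing. Blocked values are given for some list genes and neighbours, among them all whose call they change. Genes of nearest profile carry no test in either fit. Erythroid, neutrophil, endothelial, hepatocyte and lymphoid marker lists had 4, 11, 11, 2 and 4 genes tested, with medians of -0.38, -0.16, -0.32, -0.15 and -0.46. Over these lists limma passed 0 genes, where 0.151% of all genes passed. With the block 2 endothelial genes passed in opposite directions, where 0.835% of all genes passed. Tek rose, reading 381, 370.5 and 204 in controls and 912, 1176 and 1194 in FOG1 ki/ki, and Esam fell. Other pseudocounts, normalizations, filters, probe set rules and subsets of arrays were tried.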

Additional observations from a re-analysis of the deposited data

How the results depend on the processing

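Every value of the 14 member probe sets above the filter stayed below control under all settings tried on it. The median of the 8 genes was -2.66 with a pseudocount of 1, -1.52 with one of 64 and -1.58 with the mean of a gene's probe sets, which averages in the probe sets near background. It ranged from -2.08 to -1.83 when 1 array was left out and from -2.05 to -1.79 when both arrays of a number were. The count of 17 genes passing limma over all genes was 8 with a pseudocount of 1, 1 with no filter, 3 in the brightest 25% of probe sets, 9 with the mean of probe sets and 94 with the replicate block. It was 1 or 2 without any 1 array, and 0 without both arrays of number 1, 2 or 3, where 623, 472 and 694 genes had an unadjusted p under 0.05. The family and partner count of 0 became 2 with the replicate block, Serpinb6b and Serpinb9, and was 0 under all other settings. Among family, neighbour and marker genes the block changed the calls of Serpinb6b, Serpinb9, Esam, Tek, Ms4a2 and Gp6. Low signal limits Ndnf, Ddit4l and A930003A15Rik most.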
